A study of Mus musculus with 9 samples.

Results

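A set of 9 genes was followed in RNA from sorted mouse skin cells: the class II antigen presentation genes Cd74, H2-Aa, H2-Ab1, H2-Eb1, H2-DMa, H2-DMb1 and Ciita, and the leukocyte transcripts Cd207 and Tyrobp, called traces here. They were taken by symbol, 9 of the 24532 genes in the deposited table, and the class II counts were set beside the trace counts library by library. The cells came from skin of C57BL/6 mice at postnatal day 1, day 7 or day 14, with 3 libraries a day and 9 in all, and the labels name no treatment. The sorted fraction was negative for the leukocyte marker CD45.2 and for propidium iodide, a stain of dead cells, and is labelled keratinocytes, with no positive keratinocyte marker named for the gate. Nothing given here ties a library to an animal, so p-values cover the differences among libraries of a day, whether those are biological or technical.

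Class II molecules present peptides from endosomes to CD4 T cells. An alpha and a beta chain pair in the endoplasmic reticulum with the invariant chain, which fills the groove and guides the complex to endosomes, where the DM heterodimer exchanges its remnant for peptide. In the epidermis the usual source of class II is the Langerhans cell, a CD45-positive phagocyte that settles in the epidermis before birth, gains langerin (the product of Cd207) after birth and divides there during the first weeks of life. Keratinocytes can also make class II when interferon gamma induces the transactivator CIITA.

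Total counts ran from 50670191 to 62970768 per library. The table's D0 headers match no sample title and were assigned to day 1 by elimination, since D7 and D14 headers also exist. Libraries are named below by the number in their header. Day 7 has another style of header, and sex-linked transcripts differed between days. Xist, made in female cells, had 53509 to 104994 counts at day 1, 0 at day 7 and 116572 to 142283 at day 14, and the Y-linked Ddx3y had 1781 to 3456, 5223 to 6865 and 0. Each day 1 library thus held transcripts of both sexes, and each library of days 7 and 14 those of 1 sex. The mix of animals in a library may therefore differ between days. Sex, any difference in pooling and any separate handling of day 7 cannot be told apart from age in the comparisons below. Krt5, the basal keratin, had between 738484 and 1424901 counts in each library, and Ptprc, which encodes CD45, had at most 9.

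At day 14 the class II genes were higher than at either earlier day, the chains and the invariant chain most and the DM genes least, while Ciita missed the threshold. From day 7 to day 14, 6 of the 7 class II genes and both traces were called higher and none lower, against a background of 32.5% of 14507 tested genes called higher and 35.1% called lower in the same fit (edgeR quasi-likelihood test, adjusted p under 0.05). From day 1 to day 7, 3 of the 7 class II genes and Cd207 were called higher and none lower, against 25.5% of all tested genes called higher and 24.0% lower. From day 1 to day 14, 6 of the 7 class II genes and both traces were called higher and none lower, against 35.5% and 38.4%. The median log2 fold change of the 7 class II genes was 0.44, 2.11 and 2.79 in these comparisons, beside medians over all tested genes of -0.001, -0.035 and -0.046. The 3 comparisons share libraries and are not independent. All 9 genes passed the low-count filter, which asks for about 0.175 CPM (counts scaled to library size) in at least 3 libraries. The 3 day 14 libraries reached that level for every one of the 9 genes. At days 1 and 7 together Ciita reached it in 0 libraries, Cd207 in 2 and Tyrobp in 3. Ciita and Cd207 therefore entered the test only because of day 14, while Tyrobp reached the required 3 libraries without it. Without the filter, 4, 8 and 8 of the 9 genes were called higher in the 3 comparisons, as with it.

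**Figure D1:**
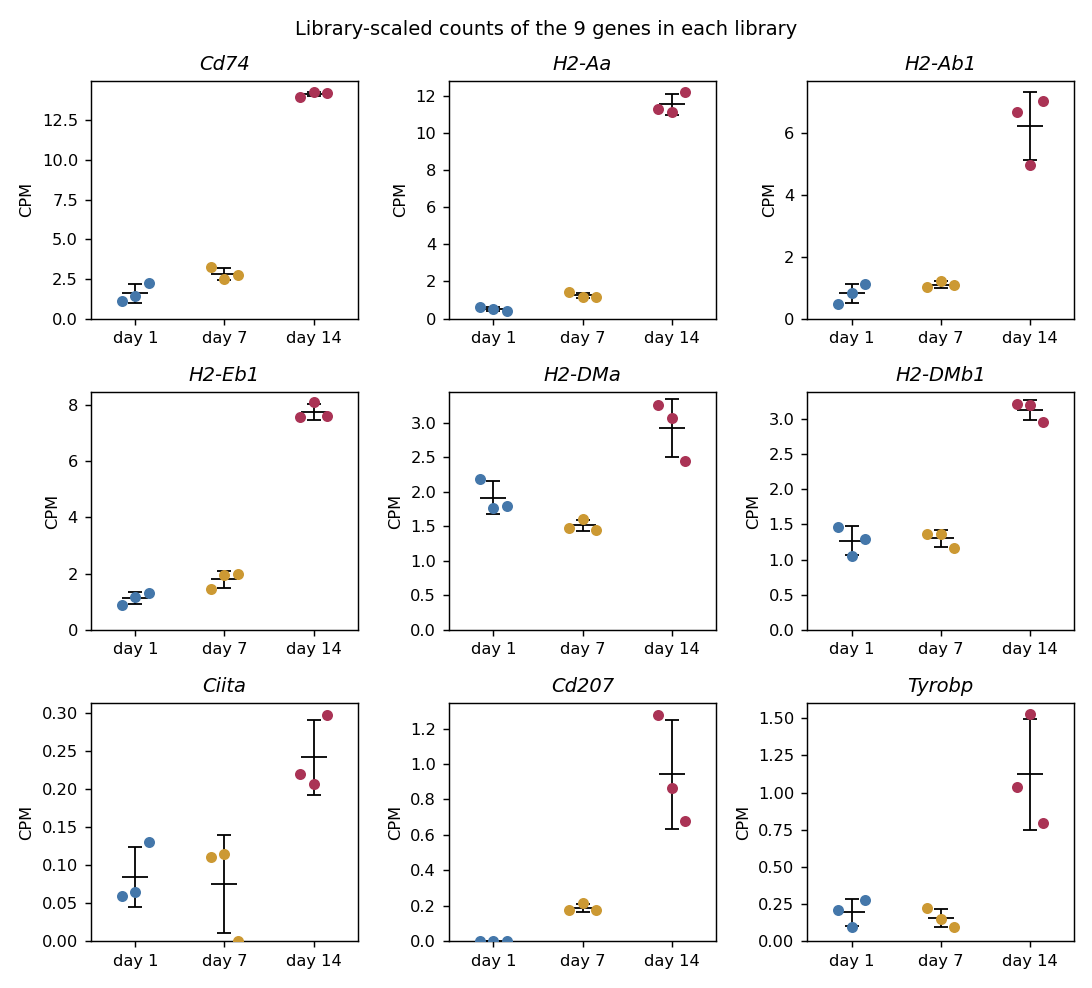
Library-scaled counts (CPM on TMM-scaled library sizes) of each of the 9 genes, by postnatal day. Points are libraries, in the order of their header number, and bars give the mean and SD of 3 libraries. All axes start at 0. Every day 14 library of the 7 class II genes and both traces lies above every day 1 and day 7 library of the same gene.

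Class II genes share a promoter module in which an X box is bound by RFX and a Y box by NF-Y, and CIITA docks on the assembled complex. Promoters were found in RefSeq (GRCm38.p6, the assembly behind mm10) for H2-Aa, H2-Eb1, H2-DMa, H2-DMb1 and Cd207. The 120 bases before the start site are printed for the 3 genes called higher at day 14 whose window holds a Y box core: H2-Eb1 (chr17:34305747-34305866, plus strand), H2-DMb1 (chr17:34153071-34153190, plus strand) and H2-Aa (chr17:34287824-34287943, minus strand). Capitals mark the Y box core GATTGG or its reverse complement, the X box core AGNNACNGA and the cyclic AMP element TGACGTCA, letters that were settled on with these promoters in view.
H2-Eb1: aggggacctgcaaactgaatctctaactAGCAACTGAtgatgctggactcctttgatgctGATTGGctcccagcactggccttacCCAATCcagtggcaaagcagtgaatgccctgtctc
H2-DMb1: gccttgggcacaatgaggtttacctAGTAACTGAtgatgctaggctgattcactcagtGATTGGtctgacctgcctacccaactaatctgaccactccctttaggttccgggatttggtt
H2-Aa: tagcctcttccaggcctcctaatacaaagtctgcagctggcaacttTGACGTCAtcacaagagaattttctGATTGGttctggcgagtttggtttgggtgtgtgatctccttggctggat
The Y box core began at position -60 from the start site in H2-Eb1, -62 in H2-DMb1 and -49 in H2-Aa, and the X box core at -92 in H2-Eb1 and -95 in H2-DMb1. The H2-Aa window held no AGNNACNGA but had TGACGTCA at -74. On either strand, GATTGG stood in 16.1% and AGNNACNGA in 17.7% of the 32851 RefSeq promoter windows of 300 bases, the pair in 2.81% and TGACGTCA in 1.79%. The longer Y box CTGATTGG, which contains the core, stood in 4.1% of windows and in those of H2-Aa and H2-Eb1. None of these letters was found in the Cd207 window, and H2-DMa had only a GATTGG, at -199 from the second of its 2 start sites. A match describes the sequence and not a bound factor.

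H2-Aa encodes the alpha chain of the I-A molecule (gene 14960, chromosome 17, 34282744 to 34287823 in mm10). It stood at 0.636, 0.499 and 0.391 CPM in day 1 libraries 4, 5 and 6, at 1.41, 1.19 and 1.14 CPM in day 7 libraries 1, 2 and 3, and at 11.3, 11.1 and 12.2 CPM in day 14 libraries 4, 5 and 6. The days did not overlap. The log2 fold change was 1.29 ± 0.19 (SE) from day 1 to day 7 (edgeR adjusted p = 0.000113) and 3.21 ± 0.16 from day 7 to day 14 (edgeR adjusted p = 8.03e-09). Over both weeks the gene rose 22.51-fold, the largest fitted change among the 7 class II genes.

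H2-Ab1, the beta chain that pairs with it (gene 14961, chromosome 17, 34263227 to 34269418), had 0.488, 0.837 and 1.12 CPM at day 1, 1.01, 1.21 and 1.08 CPM at day 7 and 6.67, 4.96 and 7.04 CPM at day 14. Days 1 and 7 overlapped and day 14 lay apart. From day 1 to day 7 the log2 difference of 0.44 ± 0.27 did not pass the test (edgeR adjusted p = 0.209), though it did without day 1 library 6, at 0.74 (edgeR adjusted p = 0.0464, range over all alternatives 0.0464 to 0.594). The rise from day 7 to day 14 was 2.5 ± 0.26 (edgeR adjusted p = 3.83e-06).

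H2-Eb1 encodes the beta chain of the I-E molecule (gene 14969, chromosome 17, 34305867 to 34316674), whose alpha partner C57BL/6 mice do not make. Its levels were 0.887, 1.16 and 1.32 CPM at day 1, 1.45, 1.96 and 1.99 CPM at day 7 and 7.55, 8.09 and 7.6 CPM at day 14, with no overlap between days. It rose by 0.68 ± 0.19 on the log2 scale in the first week (edgeR adjusted p = 0.0089) and by 2.11 ± 0.18 in the second (edgeR adjusted p = 5.6e-07).

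Cd74, the invariant chain (gene 16149, chromosome 18, 60803849 to 60812652), had 1.11, 1.40 and 2.26 CPM at day 1, 3.24, 2.48 and 2.75 CPM at day 7 and 14.0, 14.3 and 14.2 CPM at day 14. Day 1 library 6 came close to the day 7 libraries without reaching them. The spread of the day 14 libraries was within counting error (SD 1.26% of the mean, against 3.71% for counts of that size). The log2 rise was 0.83 ± 0.21 to day 7 (edgeR adjusted p = 0.00721) and 2.33 ± 0.20 from day 7 to day 14 (edgeR adjusted p = 1.2e-06).

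Neither chain of the peptide editor DM was called in the first week. H2-DMb1, the beta chain (gene 14999, chromosome 17, 34153191 to 34160229), was at 1.46, 1.05 and 1.29 CPM at day 1, 1.37, 1.37 and 1.16 CPM at day 7 and 3.22, 3.20 and 2.96 CPM at day 14. In that week the estimate was near 0 (log2 difference of 0.04 ± 0.20, edgeR adjusted p = 0.883), and H2-DMb1 then rose by 1.26 ± 0.20 to day 14 (edgeR adjusted p = 0.000105). Whether its change differs from those of the chains was not tested. Its near-identical neighbour H2-DMb2 had 0 to 9 counts per library at days 1 and 7 and 14 to 31 at day 14, and reads may have been divided between the copies.

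H2-DMa, the alpha chain of DM (gene 14998, chromosome 17, 34119693 to 34139101), had 2.19, 1.77 and 1.79 CPM at day 1, 1.48, 1.61 and 1.45 CPM at day 7 and 3.26, 3.07 and 2.45 CPM at day 14. The lowest values were those of day 7, with no overlap with day 1, yet the log2 difference of -0.34 ± 0.19 did not pass the test (edgeR adjusted p = 0.162). It rose by 0.95 ± 0.19 from day 7 to day 14 (edgeR adjusted p = 0.000756). The rise over both weeks was 0.61 ± 0.19 (edgeR adjusted p = 0.0104) and was lost with library totals alone as scaling (0.34, edgeR adjusted p = 0.124, range over all alternatives 0.00429 to 0.124). The annotated span of H2-DMa overlaps Brd2, a chromatin reader whose day 1, day 7 and day 14 levels were 334 ± 9.01, 361 ± 20.3 and 655 ± 29.0 CPM (SD, n = 3), and although the library kit keeps strand, the sources used here do not give the strand setting of the counting. How much of the H2-DMa count comes from Brd2 transcripts was not tested.

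**Figure D2:**
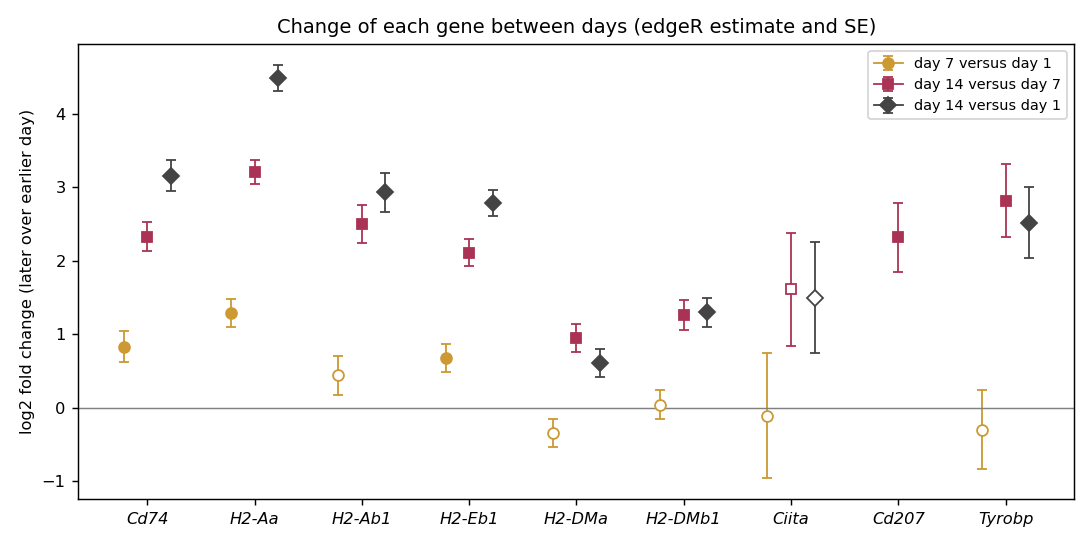
Fitted log2 fold change of each gene between days (edgeR estimate, bars are SE, 9 libraries in the fit). Filled symbols passed an adjusted p of 0.05 and open symbols did not. Cd207 is shown only for day 14 versus day 7, because its day 1 libraries had 0 counts. H2-Aa reached 4.49 from day 1 to day 14, and H2-DMa 0.61.

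Ciita, the transactivator (gene 12265, chromosome 16, 10480014 to 10531064), was near the limit of detection. It had 4, 4 and 8 counts in the day 1 libraries, 7, 7 and 0 in day 7 libraries 1, 2 and 3, and 11, 11 and 15 at day 14. In CPM the day 14 libraries stood above all others, at 0.242 ± 0.0494 (SD, n = 3) against 0.0749 ± 0.0649 at day 7, yet the log2 difference of 1.61 ± 0.77 did not pass the test (edgeR adjusted p = 0.0829). From day 1 to day 14 the difference was 1.5 ± 0.76 (edgeR adjusted p = 0.0916), and it passed when only the 6 libraries of those days were fitted (edgeR adjusted p = 0.0354, range over all alternatives 0.0354 to 0.227). Ciita overlaps Dexi, which went from 17.9 ± 0.891 to 35.8 ± 2.28 CPM between days 7 and 14, and a share of Dexi reads among so few counts was not tested.

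Cd207 encodes langerin, a lectin of Langerhans cells (gene 246278, chromosome 6, 83671207 to 83677857). It had 0 counts in each of the 3 day 1 libraries, 11, 13 and 9 counts at day 7 and 64, 46 and 34 counts in day 14 libraries 4, 5 and 6. Against a floor of 3 counts per library (0.0472 CPM at day 1, which covers counting error only) its mean level was at least 3.96-fold higher at day 7 and at least 19.9-fold higher at day 14. From 0.187 ± 0.0220 CPM at day 7 to 0.941 ± 0.307 at day 14 the log2 rise was 2.32 ± 0.47 (edgeR adjusted p = 0.00131). In bulk RNA a smaller number of cells with Cd207 transcripts and fewer transcripts in each of them cannot be told apart. The cells that carried the transcripts were not identified.

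Tyrobp encodes DAP12, a signalling adaptor of myeloid and natural killer cells (gene 22177, chromosome 7, 30413782 to 30417582). It had 14, 6 and 17 counts at day 1, 14, 9 and 5 at day 7 and 52, 81 and 40 at day 14. Unlike Cd207 it was present at day 1, and days 1 and 7 overlapped (log2 difference -0.30 ± 0.54, edgeR adjusted p = 0.674). It rose by 2.82 ± 0.50 from day 7 to day 14 (edgeR adjusted p = 0.000302).

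Class II genes and traces were therefore both highest at day 14. Whether the counts of Cd74 and Cd207 kept to a single ratio at all ages depended on the value given to the day 1 zeros of Cd207. At day 1 the libraries held 75, 87 and 139 counts of Cd74 beside 0 of Cd207, which is at least 25, 29.0 and 46.3 counts of Cd74 for each of Cd207 with the latter set at its floor of 3 counts. At day 7 the ratio was 18.6, 11.7 and 15.8, and at day 14 it was 11, 16.5 and 21.1. Days 7 and 14 overlapped, and at this floor every day 1 bound lay above both. The exact Poisson interval of 0 counts reaches 3.7, however, which is above the floor. The bounds also leave out the counting error of Cd74 (59.0 to 94.0 for the 75 counts of day 1 library 4). The separation of day 1 is therefore given for the floor of 3 counts only. With 0.5 added to each count, the mean log2 ratio was 7.6 ± 0.46 at day 1, 3.85 ± 0.33 at day 7 and 3.95 ± 0.47 at day 14 (SD, n = 3). These differed over the 3 days (exact permutation test that reassigned libraries to days in every possible way, one-sided, p = 0.0286, adjusted over 3 ratios 0.0429, smallest possible p = 0.00357). The call was lost with the day 1 Cd207 counts set at 3 (exact permutation p = 0.0643) and, by its adjusted p, without day 14 library 5 (exact permutation p = 0.0357, adjusted 0.0536).

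Against Tyrobp, Cd74 had 5.36, 14.5 and 8.18 counts for each count of the trace at day 1, 14.6, 16.9 and 28.4 at day 7 and 13.5, 9.40 and 17.9 at day 14. The mean log2 ratio of 3.04 ± 0.69, 4.18 ± 0.46 and 3.70 ± 0.46 did not pass the test over the 3 days (exact permutation test, p = 0.0786, also after adjustment). The traces themselves did not hold a fixed ratio. Cd207 per Tyrobp had a mean log2 ratio of -4.56 ± 0.76 at day 1, where Cd207 was 0, 0.32 ± 0.58 at day 7 and -0.25 ± 0.55 at day 14 (exact permutation test, p = 0.0107, adjusted 0.0321, and 0.0536 after adjustment without day 14 library 5). Between days 7 and 14 alone the mean log2 ratio differed by 0.10 for Cd74 per Cd207, by -0.47 for Cd74 per Tyrobp and by -0.57 for Cd207 per Tyrobp. Exact permutation tests of 3 against 3 libraries, chosen after seeing the day 1 zeros, gave p = 0.8, 0.4 and 0.3, where the smallest possible p is 0.1.

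Per count of Cd207, H2-Aa had 8.09, 5.62 and 6.56 counts at day 7 and 8.84, 12.8 and 18.0 at day 14, with no overlap. H2-Ab1 had 5.82, 5.69 and 6.22 at day 7 and 5.22, 5.72 and 10.4 at day 14, with overlap, and H2-Eb1 had 8.36, 9.23 and 11.4 and then 5.91, 9.33 and 11.2, also with overlap. The DM genes went the other way from H2-Aa, without overlap. H2-DMa had 8.55, 7.62 and 8.33 counts per count of Cd207 at day 7 and 2.55, 3.54 and 3.62 at day 14, and H2-DMb1 had 7.91, 6.46 and 6.67 and then 2.52, 3.70 and 4.38. At day 1, with Cd207 set at its floor of 3 counts, H2-Aa had at least 14.3, 10.3 and 8 counts per count of Cd207. These bounds reach into the day 14 values, so for H2-Aa day 1 could not be set apart from day 14. At the same floor the day 1 bounds of H2-Ab1, H2-Eb1, H2-DMa and H2-DMb1 lay above their values at days 7 and 14. The ratios of these genes were not tested, and Cd74 was the only class II gene tested against the traces.

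**Figure D3:**
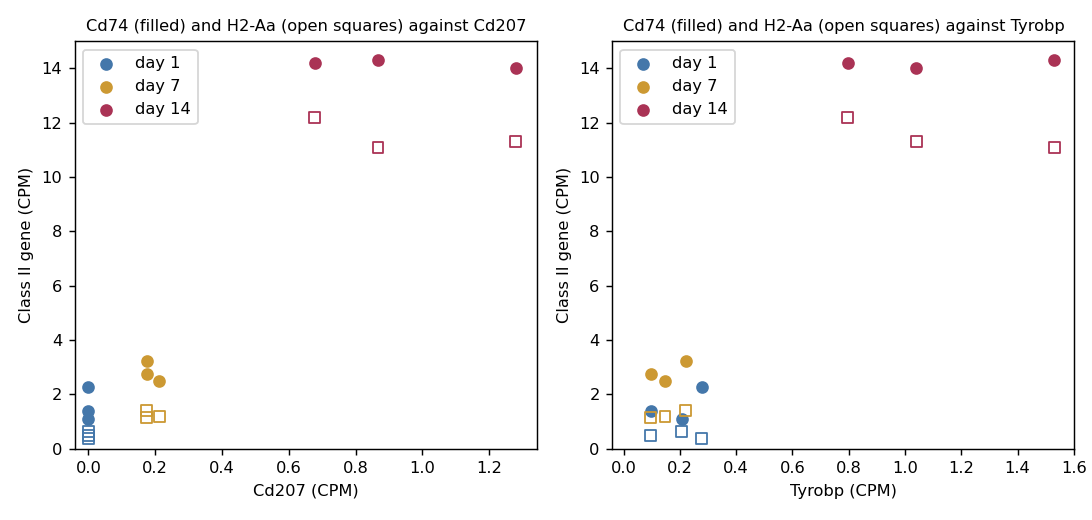
CPM of Cd74 (filled circles) and H2-Aa (open squares) on the vertical axis against CPM of Cd207 (left) or Tyrobp (right) in each of the 9 libraries, coloured by day. The days form separate clusters. Within day 14, Cd207 runs from 0.677 to 1.28 CPM, Cd74 from 14.0 to 14.3 and H2-Aa from 11.1 to 12.2. Relative to its mean, Cd74 varied least of the class II genes at day 14.

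Within a day, the order of the libraries by each class II gene was set beside their order by each trace. At day 14 Cd207 was at 1.28 CPM in library 4, 0.867 in library 5 and 0.677 in library 6, and the exact Poisson intervals of the extreme counts did not overlap (49.3 to 81.7 for 64 counts and 23.5 to 47.5 for 34). Its SD was 32.7% of the mean and that of Tyrobp 33.2%, where counting error alone would give 14.4% and 13.2%. Among the class II genes the SD ran from 1.26% of the mean for Cd74 to 20.4% for Ciita. H2-Ab1 had 17.9% and H2-DMa 14.5%, and counting error was 3.71% for Cd74 and 28.5% for Ciita. Of the 7 class II genes, 2 had their libraries in the same order as Cd207 at day 14, namely H2-DMa and H2-DMb1, and 0 in the order of Tyrobp. At day 7, where Cd207 was at 0.174 CPM in both library 1 and library 3, H2-Ab1 alone shared its order, and H2-Aa and H2-DMb1 that of Tyrobp. At day 1, 0 of the 7 shared the order of Tyrobp. Orders of 3 libraries match or differ easily, and nothing is read from these counts. No correlation was computed, because the days form separate clusters and each holds 3 libraries.

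Summed counts were set side by side as well. The 7 class II genes together had 462, 421 and 510 counts at day 1, 638, 609 and 495 at day 7 and 2314, 2387 and 2352 at day 14. The traces together had 14, 6 and 17, then 25, 22 and 14, then 116, 127 and 74. At day 1, where the traces were Tyrobp alone, they made up 2.94%, 1.41% and 3.23% of the joint sum in libraries 4, 5 and 6. At day 7 they made up 3.77%, 3.49% and 2.75% in libraries 1, 2 and 3. The exact 95% intervals of these libraries overlapped each other and that of day 14 library 6. All but that of day 1 library 5 (0.517 to 3.03) also overlapped those of day 14 libraries 4 and 5. Within day 14 the traces made up 4.77% of the joint sum in library 4, 5.05% in library 5 (exact 95% interval 4.23 to 5.98) and 3.05% in library 6 (2.40 to 3.81). The share was not tested between days. The class II sums of that day were 46.2, 45.0 and 46.8 CPM in libraries 4, 5 and 6, beside trace sums of 2.32, 2.39 and 1.47 CPM. These intervals cover counting error only.

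Levels of different genes can be set beside each other only per length, for which CPM were divided by the exonic length of each gene in GENCODE vM21 (basic transcripts, from 564 bases for Tyrobp to 8225 for Ciita). At day 1 Cd74 (1.12 ± 0.423 CPM per kb, SD, n = 3), H2-DMb1 (0.901 ± 0.15) and H2-DMa (0.718 ± 0.0886) came first, and the libraries of each overlapped those of the next. H2-Ab1 (0.673 ± 0.262) and H2-Eb1 (0.672 ± 0.130) stood next to H2-DMa within their spread. H2-Aa (0.451 ± 0.109), Tyrobp (0.343 ± 0.161) and Ciita (0.0103 ± 0.00481) followed, and Cd207 had no count. At day 7 Cd74 stood apart at 1.99 ± 0.272 CPM per kb. H2-Aa (1.10 ± 0.125), H2-Eb1 (1.08 ± 0.181), H2-DMb1 (0.927 ± 0.0869) and H2-Ab1 (0.908 ± 0.0818) came next, neighbours lying within their spread. H2-DMa (0.568 ± 0.0324), Tyrobp (0.275 ± 0.111), Cd207 (0.123 ± 0.0145) and Ciita (0.00911 ± 0.00789) were below them.

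At day 14 H2-Aa (10.2 ± 0.511 CPM per kb) and Cd74 (9.89, 10.1 and 10.1 in libraries 4, 5 and 6) were highest and did not differ beyond their spread. H2-Ab1 (5.14 ± 0.918) and H2-Eb1 (4.64 ± 0.178) came next, also within their spread of each other. H2-DMb1 (2.23 ± 0.101) and Tyrobp (1.99 ± 0.660) followed within theirs, and then H2-DMa (1.10 ± 0.159), Cd207 (0.618 ± 0.202) and Ciita (0.0294 ± 0.00601). By mean, H2-Aa was the lowest of the 3 alpha and beta chain genes at day 1 and the highest at day 14. The per-length ratio of H2-Aa to its partner H2-Ab1 was 1.40, 0.641 and 0.374 at day 1, 1.49, 1.06 and 1.13 at day 7 and 1.82, 2.41 and 1.86 at day 14, so the day 14 libraries lay above all others.

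**Figure D4:**
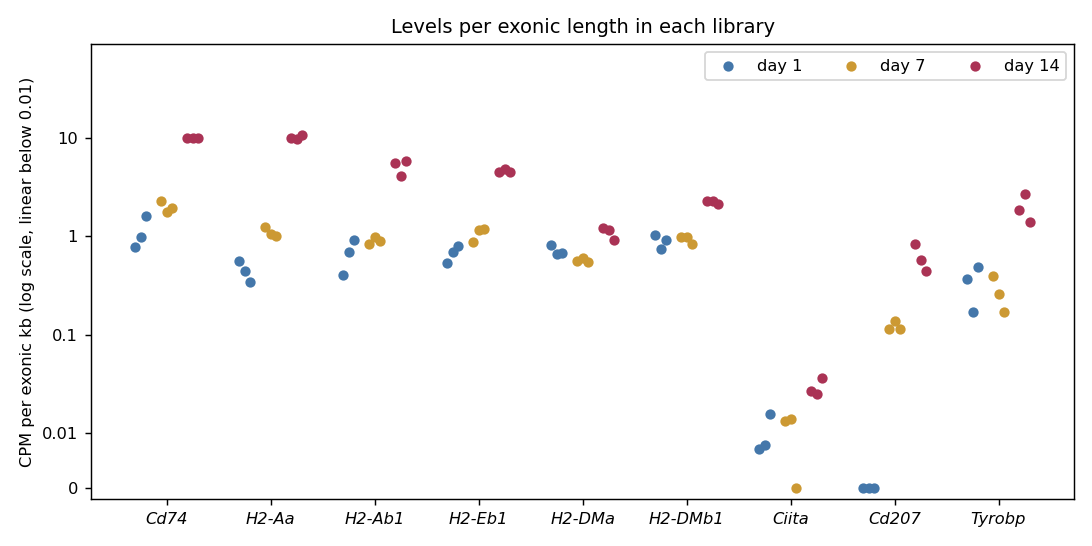
CPM per exonic kb of each gene in each library, coloured by day, on a log axis that is linear below 0.01. At day 14 Cd74 and H2-Aa lie between 9.86 and 10.8 CPM per kb, the DM genes between 0.917 and 2.29, and Ciita between 0.0252 and 0.0363.

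Other genes of the class II pathway, listed apart from the 7, ranged from abundant to absent in these cells. Ctsl, Ifi30, Lgmn and the RFX, NF-Y and Creb1 genes had 866 counts or more in each library. H2-DMb2, H2-Oa, Ctss, Cd86, Cd80 and Cd40 had at most 62 in any. Of 19 listed, 18 were in the table and 13 were tested. From day 1 to day 7, 2 were called higher and 3 lower, beside 25.5% and 24.0% of all tested genes. From day 7 to day 14, 8 were called higher and 3 lower, and from day 1 to day 14, 9 higher and 4 lower. The shares of all tested genes called higher and lower were 32.5% and 35.1% in the second week and 35.5% and 38.4% over both. Ctsl, the cathepsin that cleaves the invariant chain in thymic epithelium, went from 108 ± 7.54 to 76.1 ± 4.54 and then 158 ± 6.88 CPM. Ifi30, a thiol reductase of endosomes, rose in both weeks, from 62.8 ± 5.43 to 77.2 ± 2.09 and 98.0 ± 3.60 CPM. The Y box subunit gene Nfya rose from day 7 to day 14 (0.45 ± 0.04 log2), while Nfyc (-0.23 ± 0.04) and the activator Creb1 (-0.36 ± 0.04) fell. The other genes called from day 7 to day 14 were named after their values were seen. The Y box subunit gene Nfyb fell by 0.64 on the log2 scale (SE 0.06, edgeR adjusted p = 8.69e-07), while the RFX subunit genes Rfx5 (0.43 ± 0.06) and Rfxank (0.37 ± 0.07) and the endosomal protease gene Lgmn (0.27 ± 0.07) rose. H2-DMb2 rose too, at the counts given above, and Ctss, the cathepsin of antigen-presenting cells, had 2 to 20 counts per library at days 1 and 7 and 25 to 37 at day 14. H2-Ob and H2-Eb2 had 0 counts in every library. Cd80, also named after its values were seen, was called lower over both weeks (-3.52 ± 0.86 log2, edgeR adjusted p = 0.00286).

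Transcripts of genes on the route by which interferon gamma induces Ciita were counted at all ages. Whether the route was active was not tested. Of its 10 listed genes, all tested, 4 were called higher and 1 lower from day 1 to day 7, 7 higher and 2 lower from day 7 to day 14, and 6 higher and 0 lower from day 1 to day 14. Over all tested genes the shares called higher and lower in these comparisons were 25.5% and 24.0%, 32.5% and 35.1%, and 35.5% and 38.4%, and with 10 genes nothing particular to the list is read from its counts. Ifngr1, a chain of the interferon gamma receptor, rose from 37.5 ± 5.23 to 120 ± 7.81 and 247 ± 22.5 CPM, and its kinase Jak1 from 237 ± 2.31 to 337 ± 8.68 and 377 ± 4.28 CPM. The other kinase, Jak2, rose in the second week (0.64 ± 0.06 log2, edgeR adjusted p = 2.54e-06) and did not pass the test in the first (0.09 ± 0.06, edgeR adjusted p = 0.251), a contrast that was not itself tested. Irf1, a transcription factor that acts on Ciita, varied widely between libraries at day 7 (168 ± 73.1 CPM). It reached 339 ± 31.6 CPM at day 14 (1.01 ± 0.35 log2 from day 7, edgeR adjusted p = 0.0397). Named after its values were seen, the other receptor chain gene Ifngr2 fell from day 7 to day 14 (-0.20 ± 0.07 log2, edgeR adjusted p = 0.0309). The list also holds Socs1 and Socs3, and Socs1 was among the genes called higher from day 7 to day 14 (1.16 ± 0.18 log2, edgeR adjusted p = 0.00018).

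Further leukocyte transcripts were counted from lists, beside a background of 32.5% of all tested genes called higher and 35.1% lower from day 7 to day 14. Of 9 pan-leukocyte genes 5 were tested, and 4 were called higher and 1 lower from day 7 to day 14. Some low genes of the leukocyte, dendritic cell and T cell lists passed the filter only through day 14. Cd52 (0 to 9 counts per library at days 1 and 7) and the dendritic cell gene Zbtb46 (0 to 10) are examples. Genes low on every day were left out, so the number of rises among tested genes is partly set by the filter. Cd52 rose from 0.135 ± 0.0166 to 1.47 ± 0.369 CPM, Laptm5 from 0.161 ± 0.155 to 1.3 ± 0.231, Coro1a from 0.399 ± 0.153 to 1.64 ± 0.334 and Dock2 from 0.133 ± 0.0385 to 0.637 ± 0.331. The gene called lower, Arhgdib, made up most of the list's summed level (79.5 to 86.3 CPM at day 1, 124 to 135 at day 7, 99.9 to 115 at day 14). Ptprc had 0 to 9 counts in any library and was not tested.

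Of 16 myeloid genes, Tyrobp included, 9 were tested, of which 4 were called higher and 1 lower from day 7 to day 14. The 15 apart from Tyrobp summed to 7.34 to 9.89 CPM at day 1, 5.72 to 6.58 at day 7 and 12.7 to 14.0 at day 14. Fcer1g, an adaptor of the same signalling type as Tyrobp, rose from 0.132 ± 0.0639 to 0.781 ± 0.0717 CPM, and the lysosomal Cd68 from 2.73 ± 0.115 to 8.73 ± 1.01. Csf1r, a receptor of macrophages and Langerhans cells, had 4 to 14 counts at day 7 and 25 to 33 at day 14 (2.09 ± 0.63 log2, edgeR adjusted p = 0.0105), and was picked out after its values were seen. Itgam fell in the first week (1.45 ± 0.471 to 0.541 ± 0.153 CPM). Mpeg1, the gene called lower from day 7 to day 14, went from 1.02 ± 0.219 to 0.284 ± 0.216 CPM (-1.83 ± 0.55 log2, edgeR adjusted p = 0.0109). Cybb, C1qb and C1qc were at 0 in all day 7 and day 14 libraries.

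Of 11 Langerhans and dendritic cell genes 6 were tested, and 3 were called higher and 1 lower from day 7 to day 14. Besides Cd207 these were the rises of Mfge8 (2.69 ± 0.517 to 5.19 ± 1.17 CPM) and of Zbtb46, a dendritic cell factor (0.0784 ± 0.0790 to 0.503 ± 0.0665 CPM), and the fall of Cd1d1 (2.77 ± 0.380 to 1.00 ± 0.391 CPM). Irf8 was called over both weeks (2.78 ± 0.85 log2, edgeR adjusted p = 0.0107), with 13 to 28 counts at day 14, whereas Flt3 and Cd209a had 0 counts in every library. The summed level of the 10 genes apart from Cd207 was highest at day 1 (33.7 to 36.3 CPM, against 5.61 to 6.28 at day 7 and 6.13 to 9.09 at day 14), where Mfge8 and Cd1d1 made up most of it. Mast cell genes were at or near 0 at every age, with at most 4 counts in sum. The B cell genes Ms4a1 and Pax5 were at 0 throughout, although Cd79a rose from 0.355 ± 0.115 to 1.25 ± 0.433 CPM from day 7 to day 14. Of 5 endothelial genes tested 0 were called higher and 2 lower in each comparison, Egfl7 (2.71 ± 0.525, 0.791 ± 0.143 and 0.355 ± 0.213 CPM at days 1, 7 and 14) and Tek (0.607 ± 0.0116, 0.182 ± 0.0823 and 0.0466 ± 0.0503). Of all tested genes, 25.5% were called higher and 24.0% lower from day 1 to day 7. These shares were 32.5% and 35.1% from day 7 to day 14, and 35.5% and 38.4% from day 1 to day 14. The part that leukocyte RNA has in the class II levels was not tested.

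Keratinocyte markers were checked in the same way, and Krt5, Krt14, Krt1, Krt10, Krt15, Trp63, Dsg3 and Epcam were all tested. From day 7 to day 14, 3 of them were called higher and 4 lower, beside 32.5% and 35.1% of all tested genes. Their summed level was 47900.0 to 55500.0 CPM in the day 1 libraries, 55700.0 to 58100.0 in those of day 7 and 42200.0 to 44100.0 in those of day 14. Krt14, Krt1 and Krt15 fell from day 7 to day 14 as Krt5 did, by 0.57, 0.91, 0.35 and 0.53 on the log2 scale, and Trp63 rose by 0.17 ± 0.04.

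Likeness of pattern was measured as the root mean square difference of centred log2 CPM over the 9 libraries, among 12194 genes, with a prior count of 2 and without any test. The genes nearest to Cd74 were Klf9 (0.145), Isg20 (0.177), Ifrd1 (0.205), Tob2 (0.214), Dusp5 (0.224) and Nuak2 (0.245). Each was nearer than the nearest class II genes, H2-Ab1 (0.273) and H2-Eb1 (0.298), or than Tyrobp (0.614) and Cd207 (0.879). The 6 genes of this list, and those of the list for Cd207 below, were picked as the smallest of 12194 distances. The distances include counting error, which for H2-Ab1 was 14.0% of the mean at day 1 and 12.4% at day 7. No closer tie of Cd74 to these genes than to the class II genes is read from them. Klf9, a transcription factor, was at 31.9 ± 6.45, 57.8 ± 8.33 and 288 ± 14.3 CPM at days 1, 7 and 14, and Ifrd1 at 111 ± 27.8, 177 ± 23.2 and 802 ± 49.1. The genes nearest to Cd207 were Skint6 (0.217), Alox12e (0.253), Krt23 (0.264), Ppp2r2c (0.332), Usp18 (0.354) and B2m (0.373), all nearer than H2-Aa (0.676). Because Cd207 had 0 counts at day 1, its level there is set by the prior count, and these distances and ranks depend on that choice. B2m, the light chain of class I molecules, was at 41.2 ± 1.44, 169 ± 24.4 and 817 ± 77.4 CPM at days 1, 7 and 14.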

How the data were processed

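RNA of 9 libraries was analysed from a table of read counts per gene, whole numbers not normalised by the authors, per the file headers. A further 18 columns of FPKM and TPM were not used, as columns known only by day were limited to counts. Levels per length were therefore CPM divided by exonic length, a change from the plan made after the headers were seen. The submitters' processing notes name Trimmomatic, bcl2fastq 2.20.0, StringTie 1.3.4d and HISAT2 2.1.0, with mm10. No source used here gives the counting step or its strand setting. Among counts from 1 to 20, 53.1% to 55.1% were even in each library.

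The count model was the robust quasi-likelihood F test of edgeR 4.0.16 (under R 4.3.3), with TMM factors, filterByExpr and day as the factor over 9 libraries. P-values were adjusted by the Benjamini-Hochberg method over 14507 genes, with 0.05 as threshold. DESeq2 1.42.0 was an alternative. Count ratios were tested with exact permutation tests. The fit was tested on simulated data. Within a day, which header belongs to which title is unknown.

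The members and gene lists were chosen with earlier results of these data known. All 9 members are named, as are up to 5 called genes of highest mean CPM from each list, and the 6 genes nearest in pattern, with symbols of the form Gm or Rik left out and a mean of at least 1 CPM in some day. A called gene of the interferon gamma list is not reported by name here. All 9 members matched RefSeq gene identifiers.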

Additional observations from a re-analysis of the deposited data

How the results depend on the processing

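Over 15 alternatives, 378 of 386 fold changes of the 9 genes kept their direction and their side of the threshold. In 5 cases an estimate of the first week that had not passed the test changed sign: H2-DMb1 (0.04) to -0.06 with library totals alone and -0.08 without day 1 library 5, Ciita (-0.11) to 0.32 without day 1 library 6 and 0.41 without day 7 library 3, and Tyrobp (-0.30) to 0.04 without day 1 library 6. Leaving out each library in turn, these estimates ran from -0.08 to 0.16 for H2-DMb1, -0.5 to 0.41 for Ciita and -0.64 to 0.04 for Tyrobp. The cause was not tested. Calls changed for H2-Ab1 in the first week without day 1 library 6, H2-DMa over both weeks with library totals alone and Ciita over both weeks in the 6-library fit. The number of the 9 genes called higher stayed at 8 from day 7 to day 14, ranged from 4 to 5 from day 1 to day 7 and from 7 to 9 from day 1 to day 14. With the header number as a replicate block over days 1 and 14, 8 were called higher, against 9 in the fit of the same 6 libraries without it, where Ciita passed (edgeR adjusted p = 0.0354, and 0.0776 with the block), and the libraries share only a number (their deviations correlated at 0.014, 0.01 and 0.104 for numbers 4, 5 and 6). Without each library in turn, the exact permutation p of Cd74 per Cd207 ran from 0.0143 to 0.0357, of Cd74 per Tyrobp from 0.05 to 0.279 and of Cd207 per Tyrobp from 0.00714 to 0.0214. Added after the data were seen, Cd207 set at 3 counts where it was 0 gave exact permutation p-values of 0.0643 for Cd74 per Cd207 and 0.0143 for Cd207 per Tyrobp, and days 7 and 14 alone gave 0.8 and 0.3, in a design whose smallest p is 0.1. Depth limits Ciita, Cd207 and Tyrobp most, at 0 to 17 counts per library at days 1 and 7.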

Other observations

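Transcripts of complement C1q, a product of macrophages, were seen in the youngest libraries. C1qb had 18, 17 and 15 counts in day 1 libraries 4, 5 and 6 and 0 at days 7 and 14. C1qc had 14, 8 and 16 counts at day 1 and 0 later, and C1qa had 0, 8 and 10 counts at day 1 and at most 2 later. These are the libraries in which Cd207 was at 0.

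Genes of T cells changed with age as well. Cd247, the CD3 zeta chain, had 0, 0 and 2 counts at day 1, 13, 8 and 4 at day 7 and 34, 12 and 37 at day 14 (edgeR adjusted p = 0.0208 from day 7 to day 14). Cd3g had 0, 9 and 0 counts at day 1 and 18, 25 and 14 at day 14 (edgeR adjusted p = 0.0177 from day 1 to day 14). Cd7 had 0 counts at day 1, 4 to 5 at day 7 and 7 to 24 at day 14, and was not tested. Lck, a kinase of T cells, went the other way, from 4.32 ± 0.497 CPM at day 1 to 1.78 ± 0.376 at day 7 and 1.07 ± 0.251 at day 14 (SD, n = 3).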
